A study of Saccharomyces cerevisiae with 24 samples.

Results

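The nuclear genes for the proteins of the mitochondrial ribosome were followed through a change of carbon source in budding yeast with different forms of the transcription factor Sfp1. The members were all 54 genes of the deposited table whose symbol is MRPL, MRPS or RSM followed by a number, out of 6612 transcripts. Of these, 34 encode large-subunit proteins (MRPL) and 20 encode small-subunit proteins (MRPS and RSM). The 132 genes of the cytosolic ribosome (RP genes, symbols RPL or RPS) served as the contrast. The study sequenced poly(A) RNA from 24 libraries of 3 Saccharomyces cerevisiae strains in 4 conditions, with 2 libraries in each of 12 groups. By the labels, each strain carried SFP1 with a MYC tag linked to KanMX, either WT, with both acetylated lysines changed to arginine, which cannot be acetylated (K655/657R), or with both changed to glutamine, which resembles acetyl-lysine (K655/657Q). The labels also give all strains, the WT included, the marker alleles can1-100, ura3-1, trp1-1, leu2-3,112, his3-11,15 and ade2-1. The strain list of the study gives MYC-tagged strains in a background with other alleles of some of these markers, and which of the sources applies is not settled here. Cells were sampled in YPD, which contains glucose, after raffinose incubation lasting a generation, and 15 min and 30 min after glucose was given back to the raffinose culture. Whether the replicates came from separate cultures is not given in the sources used here, so the p-values measure only the spread between these libraries.

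The mitochondrial ribosome translates the few messages encoded by mitochondrial DNA, which in yeast are mainly core subunits of the respiratory chain and the ATP synthase, together with Var1, a protein of the ribosome itself. Its other proteins are encoded in the nucleus and imported. Yeast cells repress respiration while glucose is plentiful and turn to it on poorer carbon sources such as raffinose. Sfp1 is known as an activator of cytosolic RP genes and of ribosome biogenesis (RiBi) genes. Puf3 is a Pumilio-family protein that binds an 8-base element, TGTANATA, downstream of the stop codon in many messages for nuclear-encoded mitochondrial proteins.

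The element was therefore looked up in the members before their RNA levels are described, because it is the sequence that most of them have in common. The nearest copy to the stop codon is shown, from RefSeq on build R64 and on the coding strand, for 11 members that return in the results below. Capitals mark the element.
MRPL39 (chrXIII:251207-251236, minus strand): ttcatttatccTGTAAATAagtaatggata
MRPS12 (chrXIV:694269-694298, minus strand): atacaacctttTGTAAATAgcaatgaccat
MRPL25 (chrVII:637008-637037, minus strand): atgtctaatcaTGTAAATAattttgtgata
MRPL6 (chrVIII:392535-392564, minus strand): agggaatacctTGTAAATAtcctatgaaaa
MRPL20 (chrXI:599049-599078, minus strand): aataacaatcgTGTAAATActactctataa
MRPL15 (chrXII:760291-760320, plus strand): aaaaatttatcTGTAAATAgtgatcgaaat
MRPL44 (chrXIII:720854-720883, minus strand): acaagcaagccTGTAAATAatatatatgca
MRPL32 (chrIII:119206-119235, plus strand): aaacttaagccTGTATATAgaaacttaatt
MRPL33 (chrXIII:842249-842278, plus strand): tgacttatataTGTATATAgtattattttt
RSM27 (chrVII:922547-922576, plus strand): aactcatttcaTGTACATAcaaaatcaaaa
MRPS35 (chrVII:830212-830241, plus strand): ccattattactTGTACATAaaatattctac

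On the coding strand within 200 bases after the stop codon, TGTANATA was present in 53 of the 54 members (98.1%), against 14.4% of the 5794 tested genes with a reference sequence. The 1 member without a copy was RSM22, and a window of 300 bases gave the same 53 members and 16.6% of all genes. Among the cytosolic RP genes 5 of 132 held the element (3.79%). The 53 members had 66 copies: 41 members had 1, 11 had 2, and RSM19 had 3. The copy nearest to the stop codon lay at a median of 54 bases after it. The variants were TGTAAATA (29 copies), TGTATATA (20), TGTACATA (16) and TGTAGATA (1). In 43 members (79.6%) at least 1 copy had a C at the second base before it, as in MRPL39, MRPL25 and MRPL32 above, against 4.37% of all genes. A match is a description of the sequence and not a measured binding site. The plot of element shares by gene list shows the same contrast for the other lists described further on.

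**Figure D1:**
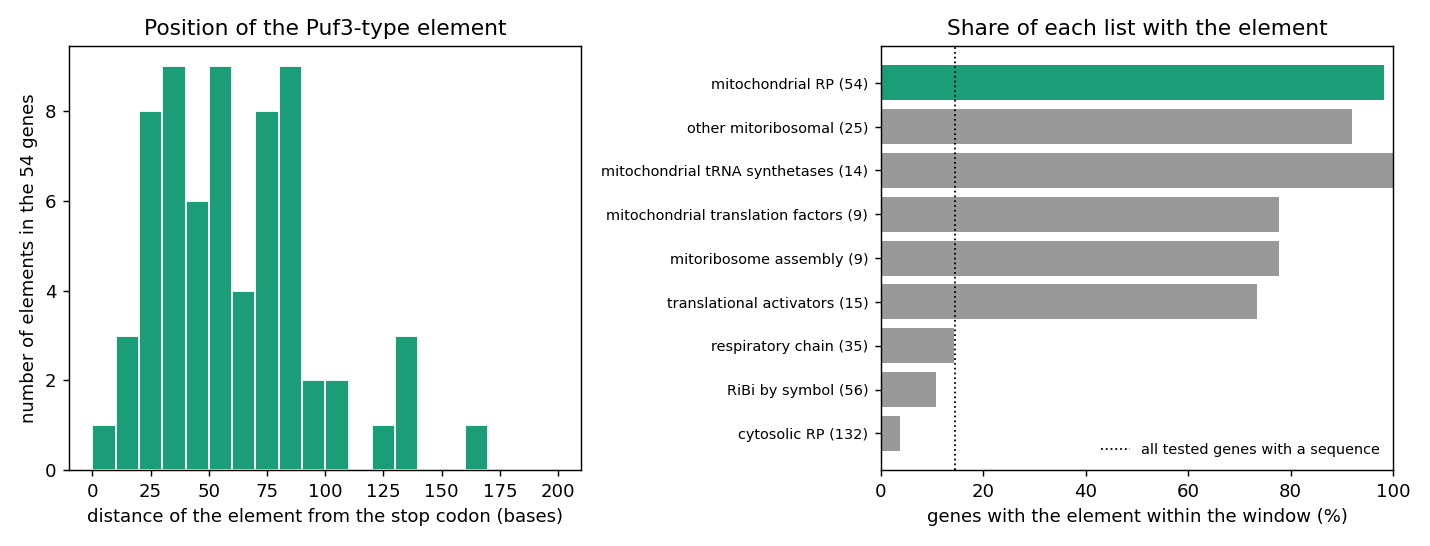
Left, number of TGTANATA copies in the members by distance from the stop codon (bases); right, share of genes (percent) with a copy within 200 bases after the stop codon, by gene list with its size in parentheses, and the dotted line for all tested genes with a sequence. The 54 members reach 98.1%, the 132 cytosolic RP genes 3.79% and all tested genes 14.4%.

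The files give TPM, estimated transcript abundances set per length to the same total in every library, so that the depth is unknown, no counting interval can be given, and a level is a share of the RNA of its library. In such bulk samples fewer cells of a kind and less RNA per cell cannot be told apart. TPM were divided by 1 median-of-ratios factor per library (0.802 to 1.14) and are called scaled TPM below. The second 30 min K655/657R library stood apart: its root-mean-square log2 difference from its replicate was 0.77, against 0.16 to 0.24 in the other 11 groups. It was left out, which leaves 23 libraries and a single 30 min K655/657R library without a test. No member was at 0 in any library. The scaling sets the median of all genes. In WT raffinose against YPD it was 0.03 on the log2 scale with these factors. It was 0.40 with TPM as deposited and 0.66 with libraries scaled to ACT1. Counts of members called under other scalings or added constants, or with a library left out, stand below without the share of all genes called. They are not read as particular to the members.

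The members were expressed at low to moderate and unequal levels (the plot of all members by library). TPM is a value per length, and the levels of the genes are set side by side on that scale. MRPL39, a counterpart of bacterial ribosomal protein L33, had the highest mean over the 23 libraries at 178 scaled TPM. It was followed by MRPS12, the counterpart of the bacterial decoding-centre protein S12, at 177, and MRPL33, the counterpart of bacterial L30, at 116. The order of the first 2 depended on the condition: in WT, MRPS12 was above MRPL39 in YPD, where both of its libraries were higher, and also in the group means at 15 and 30 min, and MRPL39 was above MRPS12 in raffinose. The lowest mean was that of RSM22, a methyltransferase-like protein of the small subunit, at 6.16, below MRPS5 at 14.7 and RSM24 at 16. The coding sequences of the members were 213 to 1887 bases long (median 706.5, all genes 1197), and only MRPL44 had an intron. MRPL39, the member with the highest mean, was the shortest, and RSM22, with the lowest mean, was the longest. Whether length affected the estimated levels was not tested. MRPL19 and MRPL51 overlap another coding sequence of RefSeq, so that the assignment of their reads is uncertain. Overlaps with transcripts that RefSeq does not hold were not checked for any member.

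**Figure D2:**
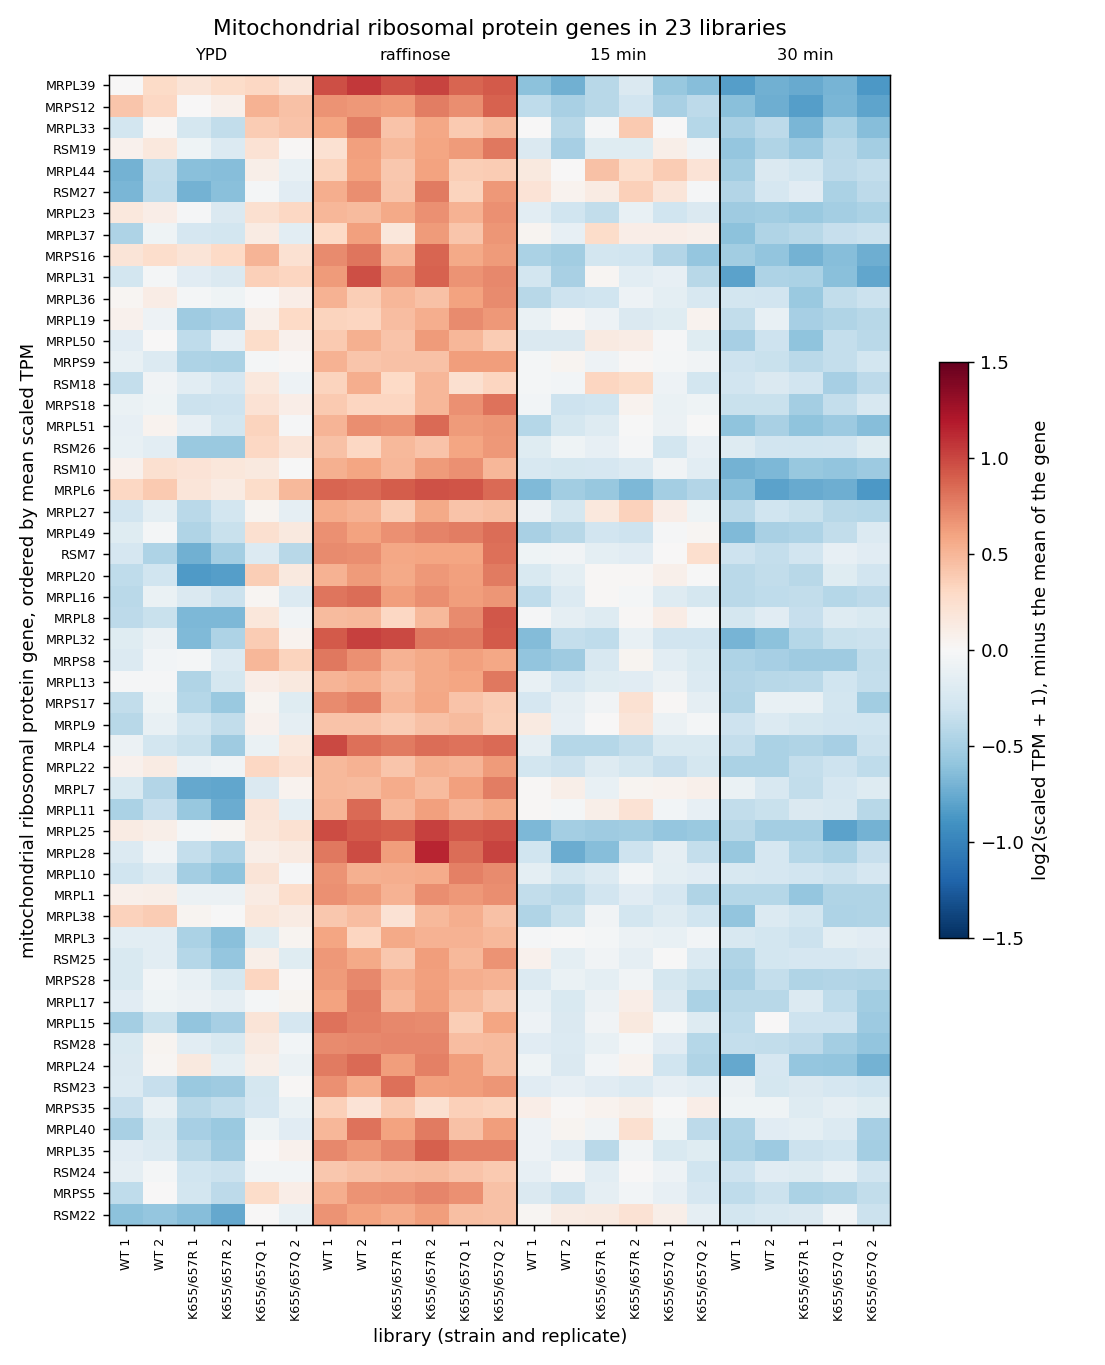
Heat map of the 54 members (vertical, ordered by mean scaled TPM) in the 23 libraries (horizontal, by condition, strain and replicate), coloured by log2(scaled TPM + 1) minus the mean of the gene. The raffinose libraries are the high ones, above the YPD libraries for all 54 members in WT and K655/657R and for 53 in K655/657Q, and the 30 min libraries are below those of raffinose.

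In WT cells, the shift from YPD to raffinose raised the RNA of most mitochondrial ribosomal protein genes. Of the 54 members, 38 rose, 0 fell, and 16 did not pass the test (limma, Benjamini-Hochberg adjusted p under 0.05 and at least 1.5-fold), where 19.0% of all 6357 tested genes rose. The median log2 change of the members was 0.80, against 0.03 over all tested genes. In 54 of 54 members both raffinose libraries were above both YPD libraries, as in 43.1% of all genes. By subunit, 26 of 34 large-subunit genes rose with a median of 0.82, and 12 of 20 small-subunit genes with a median of 0.72.

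The largest rise was that of RSM22, the member without the element. Its scaled TPM was 3.49 and 3.59 in the WT YPD libraries and 9.96 and 9.46 in raffinose. The groups were far apart at these low levels, with a log2 change of 1.24 (SE 0.097, limma adjusted p = 1.5e-08). MRPL15, a protein of the mitochondrial large subunit, was at 12 and 13.6 in YPD and 31.5 and 30.0 in raffinose. All raffinose values were above all YPD values, and the log2 change was 1.21 (SE 0.146, limma adjusted p = 2.29e-06). RSM27, a small-subunit protein of mitochondria, was at 42.3 and 52.5 in YPD and 100.4 and 112 in raffinose, a log2 change of 1.15 (SE 0.140, limma adjusted p = 2.39e-06). Its raffinose libraries again lay above both YPD libraries. The abundant members moved less. MRPL39 was at 159.9 and 194 in YPD and 311 and 331 in raffinose. MRPS12 was at 219 and 203 in YPD and 261 and 257 in raffinose, a log2 difference of 0.30 that did not reach 1.5-fold. The groups of both genes did not overlap, but the gap of MRPS12 was small. The smallest difference was that of MRPL38, a counterpart of bacterial L14, at 31.6 and 32.3 in YPD and 32.9 and 34.5 in raffinose (log2 difference 0.08, limma adjusted p = 0.568).

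In K655/657R cells, 49 of 54 members rose (17.4% of all genes) and the median was 0.93, against 0.02 over all genes. The gene with the largest rise was MRPL32, a counterpart of bacterial L32, at 17.3 and 19.9 in YPD and 56.6 and 49.1 in raffinose. The groups did not overlap (log2 change 1.46, SE 0.122, limma adjusted p = 3.7e-08). It was followed by MRPL20, a mitochondrial large-subunit protein, at 17.2 and 17.5 in YPD and 47.5 and 50.4 in raffinose. In every one of the 54 members both raffinose libraries were above both YPD libraries (43.2% of all genes).

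In K655/657Q cells, 20 of 54 members rose (11.5% of all genes), with a median of 0.52 against 0.00 over all genes. The count depended on the scaling, with 42 for TPM as deposited and 35 with ACT1 scaling. It also depended on the constant added before the logarithm, with 11 for a pseudocount of 5. The 11.5% belongs to the main factors, and the shares of all genes under these alternatives are not given here. Both raffinose libraries were above both YPD libraries in 53 members (38.0% of all genes). The exception was MRPL33, at 145 and 149 in YPD and 145 and 154 in raffinose. These values overlapped, whereas in WT cells the same gene was at 91.3 and 112 in YPD and 168 and 189 in raffinose. The largest rise in K655/657Q cells was that of RSM7, a counterpart of bacterial S7, from 29.1 and 25 to 51.6 and 60.7 (log2 change 1.02, SE 0.102, limma adjusted p = 6.46e-07). Its raffinose levels lay well above its YPD levels in this strain. Across the 3 strains 17 members rose in every one, as did 434 of all 6357 genes (6.83%). All 38 members that rose in WT cells also rose in K655/657R cells, as did 920 of all genes (14.5%).

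The size of the rise was then compared between strains with an interaction term in the same model. Against WT, the rise was smaller in K655/657Q cells for 6 members (9.39% of all genes had a lower value by this test), with a median difference of -0.18 over the members and 0.01 over all genes. The size of this difference was set by the scaling: the median over the members was -0.38 with 14 members called for TPM as deposited, -0.21 with 8 called for an upper-quartile factor, and -0.75 with 43 called for ACT1 scaling, where all genes had a median of -0.52. Relative to the median of all genes it was -0.20, -0.20 and -0.23. The shares of all genes called under these other scalings are not given here. The largest differences were those of MRPL33 (-0.79, SE 0.228, limma adjusted p = 0.0134) and RSM22 (-0.74, SE 0.137, limma adjusted p = 5.08e-04). RSM22 was at 5.92 and 5.38 in K655/657Q cells in YPD and at 8.38 and 8.32 in raffinose. Its YPD values were thus above those of WT and its raffinose values below. The others were MRPL15 (-0.70), MRPS8, a counterpart of bacterial S8 (-0.67), MRPL44 (-0.61) and MRPL31 (-0.60), the last a protein of the mitochondrial large subunit. MRPS8 was at 24.9 and 28.0 in WT YPD and 41.0 and 36.5 in K655/657Q YPD, with raffinose levels of 50.6 and 47.0 in WT and 44.6 and 43.6 in K655/657Q. The strains were therefore apart in YPD and close in raffinose for this gene. The count of 6 rested on single libraries: it was 2 without the first WT YPD library, 3 without the first K655/657Q YPD or the second WT raffinose library, and 10 or 11 without the second WT or K655/657Q YPD library. The share of all genes with a lower value by this test, 9.39%, was close to that of the members (6 of 54).

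In K655/657R cells the rise was larger than in WT for 1 member, MRPL19, a counterpart of bacterial L11 (difference 0.68, SE 0.142, limma adjusted p = 0.0127), against 1.10% of all genes. It was at 52.9 and 47.8 in WT YPD and 34.7 and 35.6 in K655/657R YPD, with raffinose levels of 63.9 and 63.5 in WT and 70.0 and 74.6 in K655/657R. The lower YPD values made up most of that difference. The median difference over the members was 0.17, and 0.01 over all genes. Across the 54 members, the raffinose changes of WT and K655/657R had a Pearson correlation of 0.74, and those of WT and K655/657Q one of 0.36. Over all 6357 tested genes the same values were 0.92 and 0.71. These are descriptions across genes, which are not independent replicates.

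At 15 min after glucose was given back, the members had fallen in all strains. In WT cells 39 of 54 fell and 0 rose (22.9% of all genes fell), with a median log2 change from raffinose of -0.81, against 0.02 over all genes. Every member was lower in both 15 min libraries than in both raffinose libraries (42.1% of all genes). In K655/657R cells 34 fell (24.5% of all genes) with a median of -0.66. In K655/657Q cells 42 fell (21.8% of all genes) with a median of -0.76. With ACT1 scaling the counts were 28 in WT, 8 in K655/657R (median -0.22, all genes 0.42) and 17 in K655/657Q (median -0.51, all genes 0.26). The shares of all genes above belong to the main factors and not to this scaling. The 3 strains shared 31 members that fell in each, as did 1147 of all genes (18%). These comparisons use the same raffinose libraries as the ones above, so that both sets of values are given and no relation between them is drawn.

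The largest fall was that of MRPL39, from 311 and 331 scaled TPM in WT raffinose to 103 and 96.0 at 15 min. Both later values were also below its YPD values of 159.9 and 194, and the log2 change was -1.68 (SE 0.094, limma adjusted p = 2.47e-10). MRPL25, a mitochondrial large-subunit protein, was at 48.2 and 46.3 in raffinose and 14.6 and 16.6 at 15 min. MRPL32 was at 54 and 57.8 in raffinose and 17.4 and 21.6 at 15 min. Both genes were also below their YPD values, which were 26.2 and 25.4 for MRPL25 and 24.6 and 26.2 for MRPL32. Their log2 changes were -1.54 (SE 0.067) and -1.48 (SE 0.122). Other members hardly moved. MRPS35, a mitochondrial small-subunit protein, was at 23 and 20.5 in raffinose and 19.0 and 17.9 at 15 min. Its groups did not overlap, but the log2 difference of -0.23 was under 1.5-fold. MRPL44, the member with an intron, was at 92.7 and 112 in raffinose and still at 81.7 and 73.7 at 15 min (log2 difference -0.39).

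With these factors the size of the 15 min fall did not pass the test of a difference between strains, with its 1.5-fold threshold, for any member. For K655/657Q against WT, 0 members were called higher and 0 lower (1.29% and 1.67% of all genes), and the median difference was 0.07. Of the members, 7 had an unadjusted p under 0.05 (20.4% of all genes). Only MRPS8 had an adjusted p under 0.05 at any fold (0.50, limma adjusted p = 0.0401), as did 5.82% of all genes. For K655/657R against WT, 0 members were called (0.283% of all genes), 8 had an unadjusted p under 0.05 (19.5% of all genes), and the median difference was 0.10. With ACT1 scaling the last comparison called 5 members, for which the fall was smaller in K655/657R, with a median of 0.34 against 0.19 over all genes. The 15 min changes correlated across the 54 members with a Pearson r of 0.81 between WT and each mutant, against 0.96 and 0.95 over all genes.

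At 30 min almost all members were down. In WT cells 52 of 54 fell from raffinose (22.3% of all genes), with a median of -0.97, and in K655/657Q cells 53 fell (21.3% of all genes), with a median of -0.98. With ACT1 scaling the counts were 41 and 27, the latter with a median of -0.59 against 0.40 over all genes. The 22.3% and 21.3% belong to the main factors. The same 52 members fell in both strains, as did 1189 of all genes (18.7%). In the single K655/657R library all 54 members were below the mean of the raffinose libraries, 53 of them by more than 1.5-fold, with a median of -1.01 and no test. Of all 6357 genes, 49.3% were lower in that library and 24.6% were lower by more than 1.5-fold. The members that did not pass in WT were MRPS35, at 16.9 and 16.8 (log2 difference -0.35), and MRPL19, at 39.0 and 47.0. The largest falls were those of MRPL39, to 89.1 and 96.1 (log2 change -1.78, SE 0.094), and MRPL32, to 16.8 and 18.0 (-1.63, SE 0.122). MRPL6, a counterpart of bacterial L6, went from 68.3 and 67.2 to 23.6 and 20.8 (-1.57, SE 0.083, limma adjusted p = 1.09e-10). For all of them the raffinose and 30 min groups were wide apart. The difference of the 30 min fall between K655/657Q and WT passed the test in 0 members, with a median of 0.03. By this test 2.93% of all genes were lower in K655/657Q. Among the members 7 had an unadjusted p under 0.05 (21.6% of all genes). Only MRPL19 had an adjusted p under 0.05, short of 1.5-fold (-0.55, limma adjusted p = 0.0245), against 7.9% of all genes at any fold.

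Between 15 and 30 min the members fell a little further, mostly by less than 1.5-fold. In WT cells 0 members were called (5.79% of all genes fell), 22 had an unadjusted p under 0.05 (44.1% of all genes), and the median was -0.19. An adjusted p under 0.05 at any fold was found for 14 members, all lower, against 34.7% of all genes in either direction. In K655/657Q cells the median was -0.23. There 16 members had an adjusted p under 0.05 at any fold, all lower (30.6% of all genes in either direction). With the 1.5-fold threshold 1 member fell in this strain (6.40% of all genes). It was MRPL44, from 96.0 and 84.8 to 55.8 and 57.1 (log2 change -0.67, SE 0.131, limma adjusted p = 0.0012). Its levels at the earlier time had stayed near those of raffinose, 95.2 and 96.4. The WT libraries of MRPL44 were at 50.7 and 63.3 at 30 min, below the 15 min values of the same strain. In the single 30 min K655/657R library 52 of 54 members were below the mean of the 15 min libraries of that strain. The median was -0.35, without a test. Over all genes the median was -0.004 and 50.5% were lower.

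Compared with YPD, the medium of departure, the 30 min levels of the members were lower in WT by a median of -0.26, a sign that turned to 0.68 when libraries were scaled to ACT1. In that comparison 8 members fell, below the 25.5% of all genes that fell, so that the count is not particular to the members. The 8 were MRPL6, MRPS12, MRPL39, RSM10, MRPS16, MRPL38, MRPL23 and RSM19, of which MRPS12 was at 106 and 98.1 and RSM10, a counterpart of bacterial S10, at 23.9 and 24.5. The YPD values of RSM10 were 41.5 and 47.1, so that these groups did not overlap. With ACT1 scaling 0 members fell. At the other end, RSM22 was at 4.69 and 4.8, above both YPD libraries (log2 difference 0.34, under 1.5-fold). In K655/657Q cells 19 members fell from YPD to 30 min (19.5% of all genes), with a median of -0.47, which became 0.06 with ACT1 scaling. The count was 11 without the first K655/657Q YPD library. The difference of 30 min from YPD had a lower value for K655/657Q than for WT in 2 members (9.30% of all genes), MRPL33 (-0.65, SE 0.228, limma adjusted p = 0.036) and MRPL15 (-0.64, SE 0.207, limma adjusted p = 0.0254). The WT mean of MRPL15 was 12.8 in YPD and 15.3 at 30 min, so that this gene was not lower than in YPD in WT, and its K655/657Q means were 17.3 and 12.7.

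With these factors, each mutant differed from WT in YPD by less than 1.5-fold in nearly all members. The median difference of K655/657Q from WT was 0.20 in YPD, against 0.01 over all genes, and 51 of 54 members had a higher mean in K655/657Q. The absolute size moved with the scaling, as did the median of all genes. With TPM as deposited the median was 0.38 (all genes 0.18) and 9 members were called. With ACT1 scaling it was 0.62 (all genes 0.40) and 31 members were called. These scalings moved all genes up, and the shares of all genes called under them are not given here. In 32 members both K655/657Q libraries were above both WT libraries, as in 34.5% of all genes in that direction, and 17 members had an adjusted p under 0.05 at any fold, all of them higher, against 41.8% of all genes in either direction. With the 1.5-fold threshold 1 member rose, MRPL20, against 6.69% of all genes. MRPL20 was at 24.1 and 25.5 in WT, at 41.2 and 35.1 in K655/657Q, and at 17.2 and 17.5 in K655/657R. The 3 strains did not overlap in this gene, and its log2 change in K655/657Q against WT was 0.59 (SE 0.081, limma adjusted p = 2.44e-05). It was just past the threshold: without the first WT or the first K655/657Q YPD library it was 0.55 or 0.48 and no longer called, and without the second of either 6 members were called.

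K655/657R lay on the other side of WT in YPD. The median difference was -0.18, against 0.00 over all genes, 46 of 54 members had a lower mean, and in 33 both libraries were below both WT libraries (29.1% of all genes). None was called with the 1.5-fold threshold (0 of 54, with 0.551% of all genes called lower), 24 had an unadjusted p under 0.05 (26.2% of all genes), and 11 an adjusted p under 0.05 (11.2% of all genes). The largest differences were those of MRPL19 (-0.50) and MRPL20 (-0.50). Between the mutants, 11 members were higher in K655/657Q than in K655/657R in YPD (9.03% of all genes), with a median of 0.42. This count was 33 with TPM as deposited and 47 with ACT1 scaling. The 9.03% belongs to the main factors, and the shares of all genes called under the other scalings are not given here. The higher counts therefore cannot be read as particular to the members. The first were MRPL20 (1.09, SE 0.081, limma adjusted p = 2.74e-08), RSM26 (0.80) and MRPL32 (0.78). MRPL32 was at 36.5 and 29.1 in K655/657Q and 17.3 and 19.9 in K655/657R, and the groups did not overlap.

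**Figure D3:**
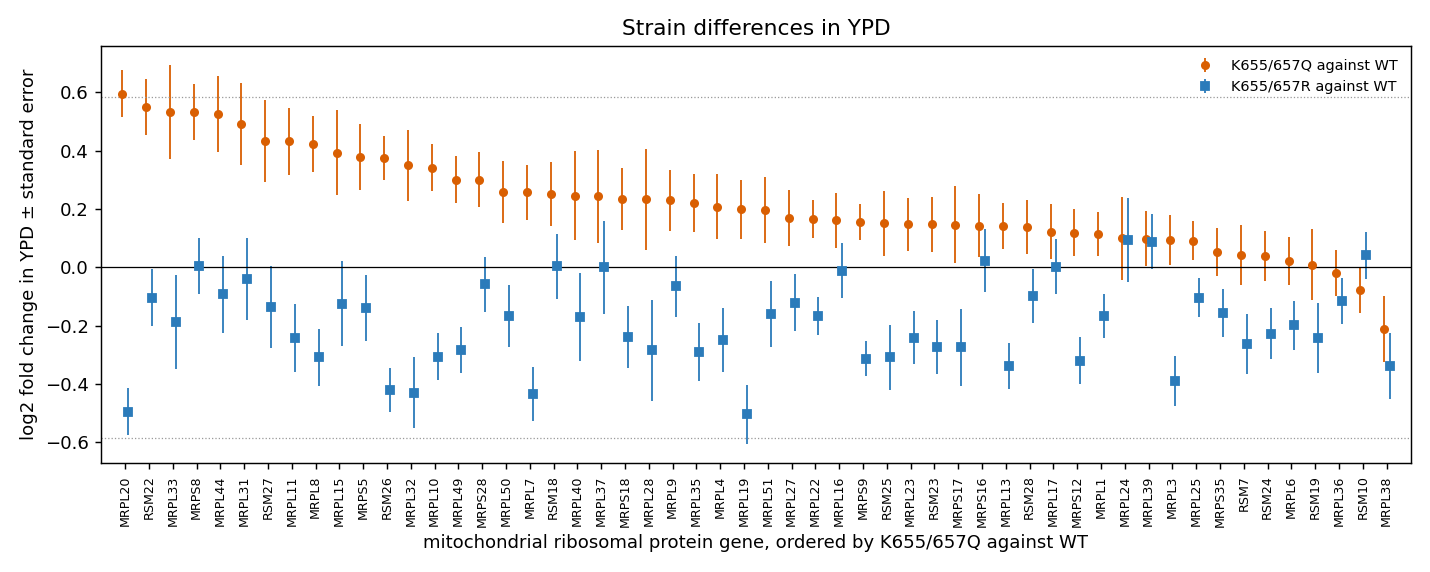
Log2 difference from WT in YPD with its standard error for each of the 54 members, K655/657Q as circles and K655/657R as squares, ordered by K655/657Q; the dotted lines mark 1.5-fold. In K655/657R 46 members lie below 0 and in K655/657Q 51 lie above 0, and only MRPL20 in K655/657Q is past a dotted line.

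With these factors, the members' levels were close between each mutant and WT in the other conditions. K655/657Q against WT gave 0 called members in raffinose (median 0.00), where 1.40% of all genes were called higher and 2.17% lower. It also gave 0 at 15 min (0.03, 2.27% and 2.47%) and 0 at 30 min (-0.02, 1.10% and 2.80%). At an unadjusted p under 0.05 there were 12, 6 and 3 members, against 34.2%, 34.3% and 33.6% of all genes. With TPM as deposited the 30 min median was 0.21. K655/657R against WT gave 0 called members in raffinose (median -0.02, 0.173% of all genes called) and 0 at 15 min (0.11, 0 of all genes called). An unadjusted p under 0.05 was found for 0 and 12 members, against 15.9% and 15.7% of all genes. Between K655/657Q and K655/657R, 2 members in raffinose and 5 at 15 min had an adjusted p under 0.05 at any fold. The shares of all genes were 12% and 29.2%. The largest of these differences was that of RSM18 at 15 min, lower in K655/657Q (-0.49, limma adjusted p = 0.0045, under 1.5-fold). A p that misses the threshold does not show that the strains were equal.

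The cytosolic RP genes moved the opposite way from YPD to raffinose and from raffinose to 15 and 30 min (the plots of both groups by library and of the responses). In raffinose 103 of 132 RP genes fell in WT (18.5% of all genes) with a median of -0.86, and the mutants gave 78 (K655/657R, 16.9% of all genes) and 91 (K655/657Q, 9.11%). At 15 min 108, 122 and 72 RP genes rose in WT, K655/657R and K655/657Q (21.7%, 22.4% and 19.1% of all genes). At 30 min 119 rose in WT (20.1% of all genes) with a median of 1.14 and 57 in K655/657Q (17.0%) with a median of 0.54. From 15 to 30 min their median was 0.30 in WT (6 rose and 4 fell) and -0.04 in K655/657Q (0 rose and 12 fell). In the 30 min response the groups of genes parted. Against WT, the 30 min response of K655/657Q from raffinose was lower for 73 RP genes (2.93% of all genes), with a median difference of -0.60, and for 0 mitochondrial ribosomal protein genes, with a median difference of 0.03.

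**Figure D4:**
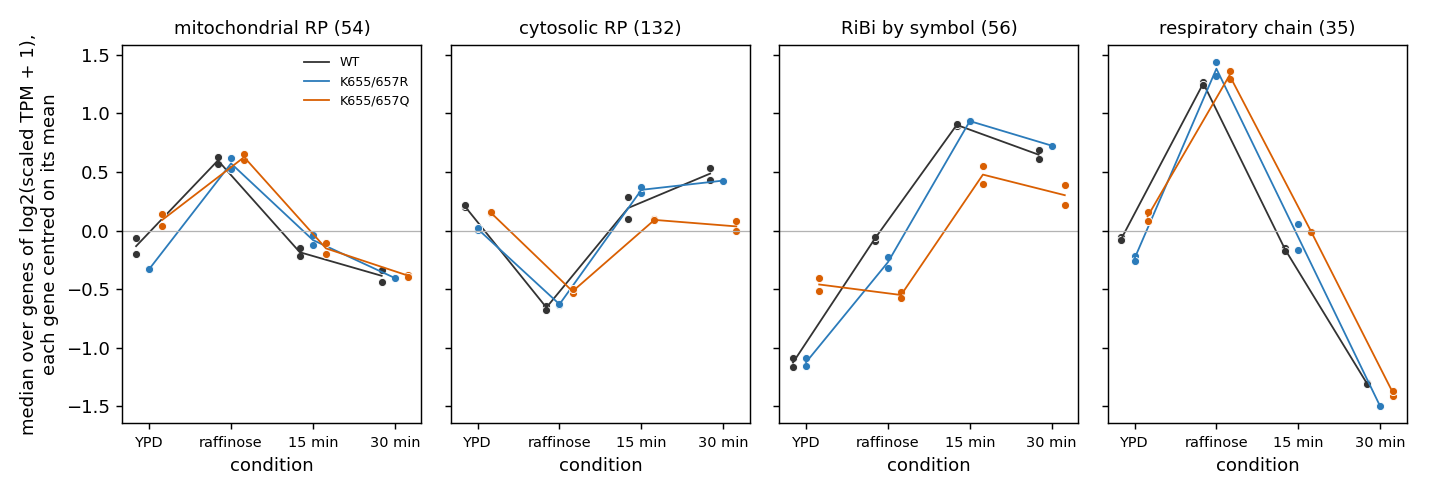
Median over the genes of each list of log2(scaled TPM + 1), each gene centred on its mean, in each library (points), by condition and strain, with lines through the group means, for the mitochondrial (54) and cytosolic (132) ribosomal protein genes, RiBi genes (56) and respiratory chain genes (35). The mitochondrial genes are highest in raffinose, where the cytosolic ones are lowest, and at 30 min K655/657Q lies below WT in the cytosolic panel while the strains lie together in the mitochondrial one.

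**Figure D5:**
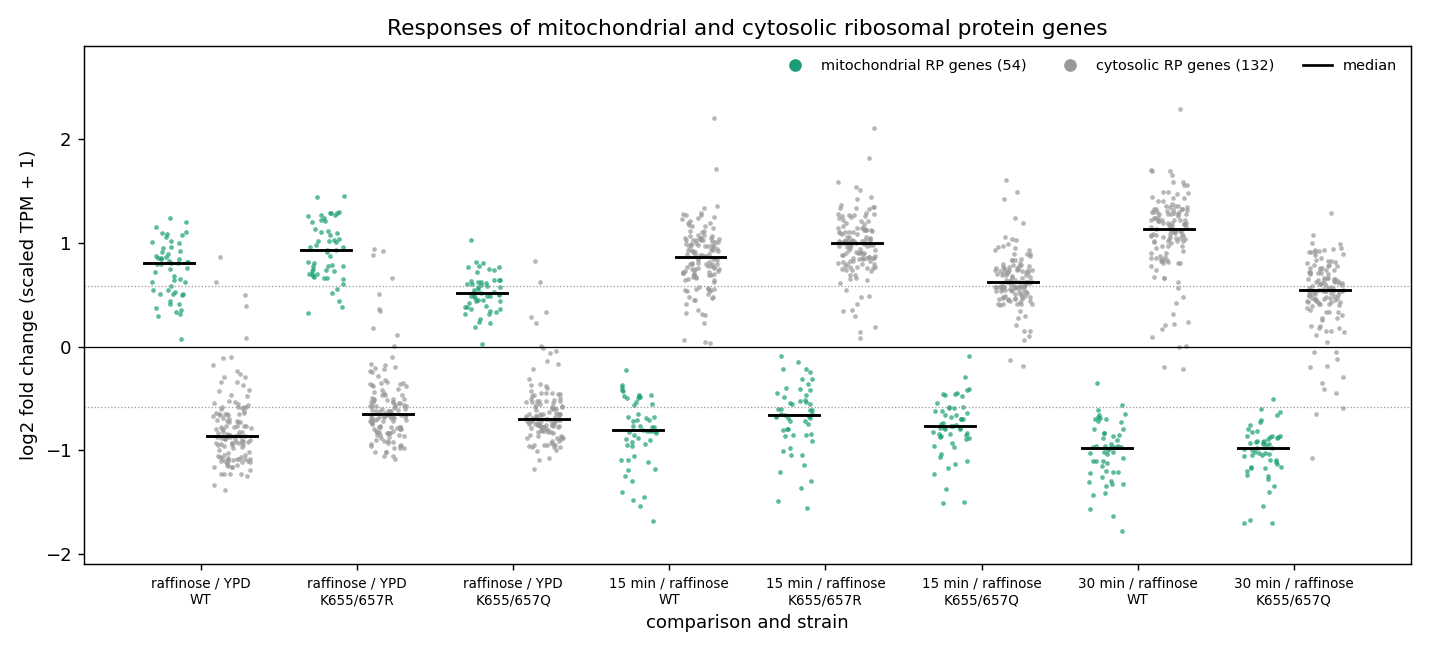
Log2 change of each gene (points, with the median as a bar) of the mitochondrial (54) and cytosolic (132) ribosomal protein genes from YPD to raffinose and from raffinose to 15 min in 3 strains, and from raffinose to 30 min in WT and K655/657Q; dotted lines mark 1.5-fold. In WT the medians are 0.80, -0.81 and -0.97 for the mitochondrial and -0.86, 0.87 and 1.14 for the cytosolic genes.

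As a share of all TPM, the 54 members made up 0.179% ± 0.011 of WT YPD libraries (SD, n = 2), 0.386% ± 0.013 in raffinose, 0.188% ± 0.00033 at 15 min and 0.151% ± 0.0018 at 30 min. In YPD the share was 0.151% ± 0.003 in K655/657R and 0.237% ± 0.007 in K655/657Q, and no library of 1 strain overlapped those of another. In raffinose all strains had 0.374% to 0.386%. At 15 min the share was 0.201% ± 0.007 in K655/657R and 0.202% ± 0.011 in K655/657Q. At 30 min it was 0.176% ± 0.009 in K655/657Q and 0.154% in the single K655/657R library. Both 30 min K655/657Q libraries (0.182% and 0.169%) were above both WT libraries (0.149% and 0.152%). In scaled TPM the median difference between these strains at 30 min was -0.02. The cytosolic RP genes together had 159.6 times the TPM of the members in WT YPD, 57.3 times in raffinose, 166 times at 15 min and 239 times at 30 min. In K655/657Q the same ratios were 127, 59.9, 150.0 and 176. The ratio in raffinose was thus alike in the strains, and at 30 min both K655/657Q libraries (170.0 and 183) lay under both WT libraries (237 and 242).

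Other genes of mitochondrial gene expression were examined by lists, beside which stand the 19.0% of all genes that rose in WT raffinose, the 22.9% that fell at 15 min and the 22.3% that fell at 30 min. Of 24 tested genes for further mitochondrial ribosomal proteins with other names, 19 rose in WT raffinose (median 0.70), 15 fell at 15 min and 22 at 30 min. PPE1, a protein phosphatase methylesterase also found in the small subunit, fell in raffinose (log2 change -0.93). Of 9 mitochondrial translation factors, 7 rose in raffinose and 8 and 9 fell at 15 and 30 min (medians 0.93, -1.10 and -1.15). MEF2, a mitochondrial elongation factor, was at 3.28 and 2.69 in YPD, 11.8 and 13.2 in raffinose and 3.30 and 3.70 at 15 min. These raffinose levels stood clear of both others (log2 changes 1.76, SE 0.094, and -1.59, SE 0.094). Of 14 mitochondrial aminoacyl-tRNA synthetases 2 rose in raffinose (median 0.41), while 8 and 10 fell at 15 and 30 min (medians -0.61 and -0.92). Among them MSF1, for phenylalanine, was at 8.83 and 9.75 in raffinose and 2.06 and 2.49 at 15 min, and its YPD levels of 7.97 and 8.29 were close to those of raffinose. Of 9 genes for assembly of the mitochondrial ribosome or its membrane attachment, 6 rose in raffinose, but 1 fell at 15 min, MBA1, the ribosome receptor of the inner membrane. Of 15 translational activators of single mitochondrial messages 1 rose in raffinose and 5 fell at 15 min. The 35 nuclear genes of the respiratory chain moved furthest, with 33 up in raffinose (median 1.42) and all 35 down at 15 min (-1.51) and 30 min (-2.57).

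The lists differed in the element and in promoter sequence. The element TGTANATA was found in 23 of 25 of the other mitochondrial ribosomal protein genes, 14 of 14 synthetases and 7 of 9 translation factors. It was also found in 7 of 9 assembly genes and 11 of 15 activators. It was found in 1 of 4 genes for mitochondrial DNA and transcription and in 5 of 35 respiratory chain genes (14.3%, as in all genes). In the 300 bases before the start codon the reverse held for CCAAT, the core of the site of the Hap complex, read on both strands. It was found in 20 members (37.0%), in 42.5% of all genes and in 31 respiratory chain genes (88.6%). AAAATTTT and GATGAG, motifs of RiBi promoters, were not more frequent in the members than elsewhere: AAAATTTT was found in 2 members, MRPL16 and MRPS16 (3.70%, 9.63% of all genes, 60.7% of 56 RiBi genes), and GATGAG in 18.5% of the members, 18.4% of all genes and 82.1% of RiBi genes, on both strands. The shorter AATTTT, which lies within AAAATTTT, was in 35.2% of the members and 55.2% of all genes.

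The RNAs of proteins known to act through these elements, and of Sfp1, were also measured. PUF3 was at 9.35 and 7.32 in WT YPD, 12.8 and 13.3 in raffinose and 8.55 and 7.24 at 15 min. It was highest in raffinose without overlap, rose by 0.60 on the log2 scale (SE 0.113, limma adjusted p = 2.2e-04, just past 1.5-fold) and fell by 0.66 at 15 min (SE 0.113, limma adjusted p = 7.04e-05). HAP4, the activator subunit of the Hap complex, was at 124 and 108.6 in YPD, 104 and 109.3 in raffinose and 2.64 and 2.45 at 15 min. Its level overlapped between YPD and raffinose and was lower by a log2 change of -4.92 at 15 min (SE 0.130, limma adjusted p = 3.75e-14). SFP1 itself was at 11.6 and 12.5 in YPD and 17.3 and 16.9 in raffinose (log2 difference 0.47, under 1.5-fold). HAP1, a haem-responsive activator, was at 48.8 and 45.3 in YPD and 42.2 and 41.8 in raffinose (log2 difference -0.16, under 1.5-fold). Their part in the changes of the members was not tested.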

How the data were processed

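Poly(A) RNA of 24 libraries was sequenced with a directional kit. The authors trimmed reads with fastp 0.23.2, checked them with FastQC 0.11.9 and MultiQC 1.12, and estimated TPM with kallisto 0.48.0 against the R64 yeast transcriptome; the deposited table holds these TPM, which sum to the same total in each library. The authors tested differences with DESeq2 on counts that were not used here. No pair of columns was identical.

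Each library's TPM were scaled by its median-of-ratios factor and taken as log2(scaled TPM + 1), so that a fold change understates that of low genes. The test covered the 6357 genes whose mean TPM reached 1, all 54 members included. limma 3.58.1 (lmFit, eBayes with trend; R 4.3.3) fitted 1 mean for each of 12 groups of 23 libraries with 11 residual degrees of freedom. p-values were Benjamini-Hochberg adjusted over all genes, and a call needed an adjusted p under 0.05 and a fold of at least 1.5. The script was tested on simulated data. The second 30 min K655/657R library was left out, as in the study. Named members are those with the 3 largest rises and falls among called members whose groups do not overlap, in the WT comparisons with raffinose and in K655/657Q against WT, and the 3 with the highest and the lowest mean; outside the members they are SFP1, PUF3, HAP4, HAP1 and at most 2 called genes a list. All other named genes were chosen after their values were seen. Members and lists were chosen with earlier results of these data known. Deviations of same-numbered replicates correlated weakly between groups and without a common sign (-0.35 to 0.31), so no block was used.

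Sequences and coding positions came from RefSeq (build R64), which held 5929 of the transcripts. Tables and plots used matplotlib 3.10.9, numpy 2.4.6 and pandas 2.3.3 under Python 3.11.15. Alternatives changed the scaling, pseudocount, filter, fold threshold, libraries and block.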

Additional observations from a re-analysis of the deposited data

Results flagged for a closer look

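By the interaction term in limma, the change from YPD to raffinose differed between K655/657Q and WT for 6 members: MRPL33 (-0.79), RSM22 (-0.74), MRPL15 (-0.70), MRPS8 (-0.67), MRPL44 (-0.61) and MRPL31 (-0.60), all as log2 differences and all smaller in K655/657Q. The same term for K655/657R differed for MRPL19 (0.68), a gene that overlaps another coding sequence. The change from YPD to 30 min differed between K655/657Q and WT for MRPL33 (-0.65) and MRPL15 (-0.64). The comparisons that involve YPD share the YPD libraries, so that the 2 sets are not independent. With 2 libraries a group, no group could be searched for a library far from the others.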

How the results depend on the processing

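Of 863 recomputed values, 735 stayed on the same side of the test or within the replicate spread of the members' median (SD 0.058). Scaling mattered most, because it moves all genes: the median of all genes in WT raffinose against YPD was 0.40 with TPM as deposited and 0.66 with ACT1 scaling, and the members stood 0.80 and 0.81 above it, against 0.78 here. With TPM as deposited the members' median from YPD to raffinose for WT, K655/657R and K655/657Q was 1.20, 1.35 and 0.72 (42 called in the last). It was -0.96, -0.84 and -0.87 from raffinose to 15 min, -1.23 from raffinose to 30 min in WT, and 0.38 (9 called) and 0.21 for K655/657Q against WT in YPD and at 30 min; for K655/657Q against K655/657R at 15 min it turned to 0.021. With ACT1 scaling it was 1.48, 1.52 and 0.64 (35 called) to raffinose, -0.61, -0.22 (8 called) and -0.51 (17 called) to 15 min, and -0.74 and -0.59 (27 called) to 30 min in WT and K655/657Q. It turned to 0.68 and 0.055 from YPD to 30 min in WT and K655/657Q, and was 0.62 (31 called), -0.14 and -0.049 for K655/657Q against WT in YPD, in raffinose and at 15 min. With upper-quartile scaling it was 0.88 and 1.00 to raffinose in WT and K655/657R, -0.85 and -0.80 to 30 min in WT and K655/657Q, and 0.054 for K655/657Q against WT at 30 min.

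A pseudocount of 5 gave 0.69 and 0.82 to raffinose in WT and K655/657R, 11 called in K655/657Q, -0.71, -0.59 and -0.66 to 15 min, -0.90 and -0.88 to 30 min, and 0 called for K655/657Q against WT in YPD, where a pseudocount of 0.1 gave 2. An adjusted p alone called 50 in K655/657Q raffinose (52.3% of all genes in either direction). For K655/657Q against WT it called 17 in YPD, 4 in raffinose and 3 at 15 min (41.8%, 21% and 22.4% of all genes). At 30 min it called 1 higher and 1 lower (21.1% of all genes). Leaving out 1 library at a time gave medians of 0.68 to 0.85 for WT raffinose, -1.05 to -0.94 for WT at 30 min and 0.15 to 0.26 for K655/657Q against WT in YPD (0 to 6 called); the difference of the 15 min fall between K655/657Q and WT ranged from -0.0045 to 0.11. Same-numbered replicates' deviations correlated at -0.35 to 0.31 over 55 pairs, without a common sign. Between conditions of the same strain the range was -0.21 to 0.31, so some libraries may share deviations. With a replicate block the WT raffinose median stayed at 0.80 with 38 called. The depth is unknown and each group has 2 libraries, which limits all tests of small differences.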

Other observations

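For genes outside the members that carry the downstream element, the median changes had the same signs in raffinose and at 15 min and were smaller. Of 210 such genes with TGTANATA and a C at the second base before it, 42.4% rose in WT raffinose (median log2 change 0.47), 46.2% fell at 15 min (-0.56) and 55.2% fell at 30 min (-0.66). Of 574 genes with the element but without that C, 22.6% rose in raffinose (0.11) and 27.4% fell at 15 min (-0.08). Of 4956 genes without the element, 17.0% rose in raffinose (-0.01) and 21.3% fell at 15 min (0.05). In K655/657Q cells 25.7% of the 210 genes rose in raffinose (0.36) and 47.1% fell at 15 min (-0.53). The 210 genes include genes of the other mitochondrial lists in the report, and these shares were set out after the data had been seen and were not tested.

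In the 30 min K655/657R library that was left out, the members made up 0.120% of all TPM, below the 0.154% of its replicate and below every other library.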
